A study of Mus musculus with 34 samples.

Results

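Glul, Slc1a2, Slc13a3, Rhbg, Oat, Rgn, Lect2 and Ahr are a set of pericentral glutamine and transport genes. They were described in bulk RNA sequencing of mouse liver samples, some of which were labelled with an exon-skipped form of beta-catenin. The genes were taken by symbol: all 8 were rows of a table of normalized counts (14086 genes, 18 libraries), and 2 of them, Oat and Ahr, were also rows of a table of z-scores (1659 genes). By source label the 18 libraries were wild type liver (n = 2), the beta-catenin skip 1 isoform alone (skip1 alone, n = 3), the skip 2 isoform alone (skip2 alone, n = 2), the skip 1 isoform induced (skip1 induced, n = 5), the skip 2 isoform induced (skip2 induced, n = 2) and ΔN90-beta-catenin induced (dN90 induced, n = 4). ΔN90 names a beta-catenin without its N terminus. The z-scores added subtype A (n = 4), subtype B (n = 9) and a group named for sgActin plus YAPS127A (n = 3), that is, an actin guide RNA with an active mutant of the co-activator YAP. The labels describe all samples, controls included, as liver cells after hydrodynamic injection, a rapid tail-vein delivery of plasmids to hepatocytes, with total RNA from frozen liver tumours. They do not say what "induced" adds to "alone", nor the strain, age, sex, time after injection or promoter. For the 4 skip2 libraries another label field says skip 1, and the source label was followed.

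Pericentral hepatocytes surround the central vein and depend on Wnt ligands from its endothelium. Beta-catenin, stabilised by that signal, works with TCF/LEF factors to keep genes such as Glul on. Glutamine synthetase, the Glul enzyme, takes up the ammonia that escaped the periportal urea cycle and binds it to glutamate. Slc1a2 and Slc13a3 carry glutamate and dicarboxylates into the cell, Rhbg is an ammonia channel, and Oat turns ornithine into a precursor of glutamate. Glul is a common marker of beta-catenin activity in liver tumours. Bulk counts hold no position in the lobule, so the zone these genes are named for was not checked here. A lower value in bulk tissue cannot tell fewer cells of a type from less RNA per cell.

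Ctnnb1, which encodes beta-catenin (chromosome 9, 120929216 to 120960507 in mm10), had 580.2 to 1266 normalized counts in skip1 induced and 444 and 457 in skip2 induced libraries. It had 135 to 199 in dN90 induced and 125 to 177 in the 7 libraries without the induced condition. A gene total does not show which exon was skipped, so it checks no isoform label. Estimated reads per library ran from 361772 (dN90 induced replicate 3) to 933146 and 815419 in the skip2 induced pair, the deepest of all. Hepatocyte markers (9 genes) summed to 59607 to 81456 without the induced condition, to 22405 to 55807 with skip1, 46436 and 51061 with skip2 and 27023 to 32806 with dN90. Biliary markers (7 genes) summed to 9.88 to 38.2 without the induced condition and to 162 to 801 with it. Only 3 of these 7, Spp1, Bicc1 and Pkhd1, reached a mean of 10, the minimum for testing. T and NK, B and neutrophil markers stayed at or below 10.2. Macrophage markers (10 genes) summed to 233 to 341 without the induced condition and 332 to 559 with skip1. With skip2 they summed to 436 and 483, and with dN90 to 279 to 446. Proliferation markers (6 genes) summed to 28.3 to 51.1 without the induced condition and 63.4 to 175 with it. Endothelial markers (9 genes, not chosen for the central vein) summed to 270 to 317 without the induced condition and 267 to 333 with skip1. Their sums were 263 and 273 with skip2 and 166 to 292 with dN90. Stellate and fibroblast markers summed highest with skip2 induced (396 and 446, beside 123 to 350.0 in all other libraries), but the markers did not move together. Of 6 tested against skip2 alone, the collagen genes Col1a1, Col1a2 and Col3a1 were higher and Dcn lower (limma adjusted p under 0.05).

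Promoter sequence is shown because beta-catenin acts on DNA through TCF/LEF factors, which read a short word. The promoter set used here, drawn from RefSeq on GRCm38.p6 (the mm10 assembly), held 5 of the 8 genes (Glul, Slc1a2, Slc13a3, Oat and Lect2). It lacked Rhbg, Rgn and Ahr. Windows of 250 bases before to 50 after the start were searched on both strands for CTTTGAT or CTTTGAA or CTTTGTT or CTTTGTA, forms of that word that share their opening letters. The 250 bases before the start are printed for Glul and Oat, which held no such word, and for Slc1a2 and Lect2, which each held it once (capitals, read here as ATCAAAG, the reverse complement of CTTTGAT). They lie at chr1:153899679-153899928 (Glul, plus strand), chr2:102706188-102706437 (Slc1a2, plus strand), chr7:132576399-132576648 (Oat, minus strand) and chr13:56548539-56548788 (Lect2, minus strand), each written in the gene's own direction. The Slc1a2 window falls inside the gene as GENCODE draws it, so it belongs to an inner start.
Glul: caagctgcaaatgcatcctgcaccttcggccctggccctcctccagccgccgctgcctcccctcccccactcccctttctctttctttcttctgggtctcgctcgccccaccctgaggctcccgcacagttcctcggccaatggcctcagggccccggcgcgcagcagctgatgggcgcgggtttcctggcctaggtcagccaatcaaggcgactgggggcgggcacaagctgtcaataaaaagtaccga
Slc1a2: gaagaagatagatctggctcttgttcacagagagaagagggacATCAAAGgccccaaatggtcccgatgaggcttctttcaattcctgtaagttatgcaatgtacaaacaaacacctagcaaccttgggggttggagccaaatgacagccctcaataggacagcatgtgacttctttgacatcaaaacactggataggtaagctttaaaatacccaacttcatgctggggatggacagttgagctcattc
Oat: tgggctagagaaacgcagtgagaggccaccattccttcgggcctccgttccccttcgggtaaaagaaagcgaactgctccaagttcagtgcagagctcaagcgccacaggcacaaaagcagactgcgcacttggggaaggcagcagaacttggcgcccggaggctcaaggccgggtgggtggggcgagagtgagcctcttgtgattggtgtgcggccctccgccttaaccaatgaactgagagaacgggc
Lect2: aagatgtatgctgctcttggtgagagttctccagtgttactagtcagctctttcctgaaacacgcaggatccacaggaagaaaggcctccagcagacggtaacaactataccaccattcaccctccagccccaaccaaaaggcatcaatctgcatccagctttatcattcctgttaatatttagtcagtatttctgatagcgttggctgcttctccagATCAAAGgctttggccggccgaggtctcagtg
The word began 32 bases before the start of Lect2 and 207 before that of Slc1a2. Of 32851 promoters of the same length, 5544 (16.9%) held at least 1 such word, and Slc13a3 held none. These are matches of letters, not measured binding.

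Glul (chromosome 1, 153899944 to 153909723) had its highest group mean with skip1 induced and its lowest with skip2 induced. Skip1 induced replicates 1 to 5 had 558, 500.4, 1227, 1910.0 and 1539.6 normalized counts. Skip2 induced had 109.9 and 175, and dN90 induced 565, 408, 157 and 86.4. The libraries without the induced condition were 543 and 561 (wild type), 528, 329 and 510.4 (skip1 alone) and 546 and 636 (skip2 alone). Thus 3 of the 5 skip1 induced libraries lay above the not induced range (329 to 636) and replicates 1 and 2 inside it, while both skip2 induced and 2 of the 4 dN90 induced libraries lay below it. Group means ran from 1147 ± 614 (SD, n = 5) with skip1 induced through 591 ± 63.8 (n = 2) in skip2 alone, 552 ± 13.01 (n = 2) in wild type, 456 ± 110 (n = 3) in skip1 alone and 304 ± 222 (n = 4) with dN90 to 142 ± 45.7 (n = 2) with skip2 induced. Neighbouring groups in that order overlapped, other than wild type and skip1 alone, whose difference (-0.31 for skip1 alone, 95% interval -1.56 to 0.95) was not called.

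**Figure D1:**
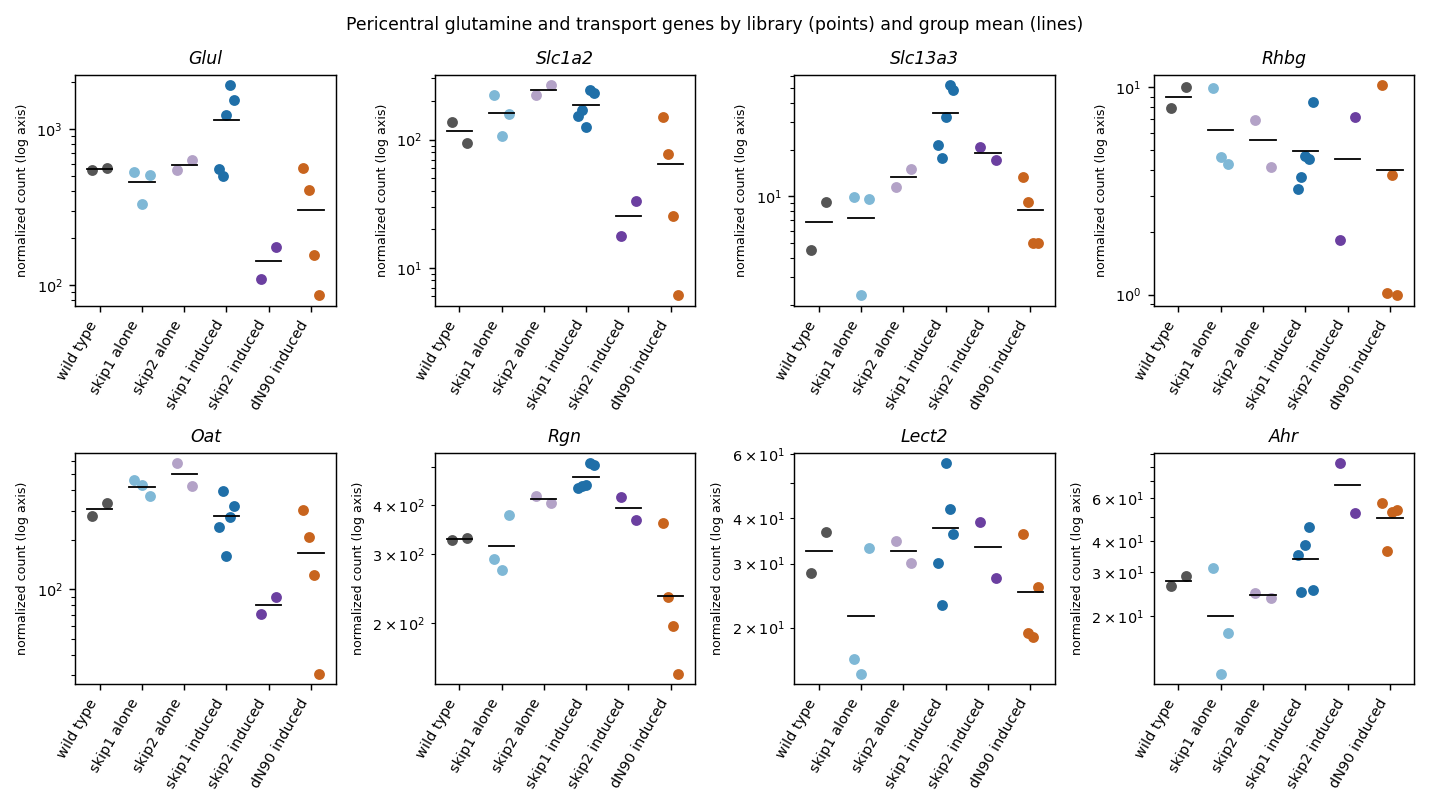
Normalized counts (log axes) of the 8 genes in the 18 libraries, 1 point per library, with group means as lines. Glul and Slc1a2 sit low in both skip2 induced libraries, and Slc13a3 is at 17.3 or more in all 7 skip1 and skip2 induced libraries and at 15.1 or less in the other 11.

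Differences are given on the log2(normalized count + 1) scale and were tested with limma over 6592 genes, with a call at an adjusted p under 0.05. Glul was higher with skip1 than with skip2 induced by 2.85 (SE 0.55, adjusted p = 0.0073), a 7.19-fold difference on this scale, and the groups did not overlap. The call was lost without skip2 induced replicate 1 (2.51, limma adjusted p = 0.289) and with sequencing depth as a covariate (3.04, adjusted p = 0.272), while its size changed little. Against dN90 induced it was higher by 2.08 (SE 0.44, limma adjusted p = 0.00574), with overlapping groups. Between skip2 and dN90 induced the difference was -0.77 (95% interval -1.96 to 0.42).

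Against their own baselines the isoforms gave Glul differences of opposite sign. With skip2 induced it fell by 2.08 relative to skip2 alone (SE 0.66, limma adjusted p = 0.0374), and the groups did not overlap. This call was lost under 8 alternatives, among them quantile normalization (-1.41, limma adjusted p = 0.247) and the omission of any of the 4 libraries compared (-1.75 without skip2 induced replicate 1 to -2.41 without skip2 induced replicate 2). With skip1 induced the difference from skip1 alone was 1.17 (SE 0.48, limma adjusted p = 0.113), and it passed without skip1 induced replicate 2 (1.42, adjusted p = 0.0426), with quantile normalization (1.82, adjusted p = 0.0367) and with voom (1.64, adjusted p = 0.0243). The direct test of skip1's effect against skip2's gave 3.25 (SE 0.82, limma adjusted p = 0.135), which passed with only those groups in the fit (adjusted p = 0.0362) and without skip2 induced replicate 2 (3.58, adjusted p = 0.0482). With dN90 induced, Glul fell by 1.15 relative to the 3 not induced groups (SE 0.42, limma adjusted p = 0.0357). That call was lost with quantile normalization (-0.59, limma adjusted p = 0.356), voom (-0.60, adjusted p = 0.244), upper-quartile scaling (-1.03, adjusted p = 0.0553) and depth as a covariate (-1.07, adjusted p = 0.126). Single libraries ended it too: without dN90 induced replicate 4 the value was -0.67 (limma adjusted p = 0.206), without replicate 3 it was -0.95 (adjusted p = 0.127), and it was also lost without 6 of the 7 not induced libraries, skip1 alone replicate 2 being the exception, at -1.11 to -1.18 (adjusted p = 0.0504 to 0.0694).

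Slc1a2 (chromosome 2, 102658659 to 102790784), the gene of the high-affinity glutamate transporter GLT-1, was lowest with skip2 induced. Skip2 induced had 17.6 and 33.0 normalized counts and dN90 induced 151, 77.3, 25.6 and 6.14. Skip1 induced had 152, 171, 126, 242 and 232, inside the not induced range of 93.9 to 266. Both skip2 and 3 of 4 dN90 induced libraries were below that range, and no library was above it. Skip1 induced replicates 3 to 5, where Glul was highest, therefore had no Slc1a2 above the pooled not induced range. The top of that range, 266, was a skip2 alone library. Replicates 4 and 5 (242 and 232) did exceed every skip1 alone and wild type library. Baseline values were 138 and 93.9 (wild type), 222, 107 and 157 (skip1 alone) and 224 and 266 (skip2 alone). In order of mean, skip2 alone (245 ± 29.7, n = 2) was followed by skip1 induced (185 ± 50.8, n = 5), skip1 alone (162 ± 57.5, n = 3), wild type (116 ± 31.2, n = 2), dN90 induced (65.1 ± 64.9, n = 4) and skip2 induced (25.3 ± 10.9, n = 2), and each overlapped its neighbour.

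Slc1a2 was higher with skip1 than with skip2 induced by 2.84 (SE 0.68, limma adjusted p = 0.0232), without overlap. That call was lost without skip2 induced replicate 1 (2.40, limma adjusted p = 0.55), without skip1 induced replicate 5 (2.74, adjusted p = 0.0539) and with depth as a covariate (3.32, adjusted p = 0.35). It was higher with skip1 than with dN90 induced by 2.21 (SE 0.55, limma adjusted p = 0.0185), or 1.40 without dN90 induced replicate 4 (adjusted p = 0.0531) and 2.03 without replicate 3 (adjusted p = 0.0809). Relative to skip2 alone it fell by 3.28 with skip2 induced (SE 0.82, limma adjusted p = 0.00883), a 9.74-fold difference, and lost the call without skip2 alone replicate 2 (-3.16, adjusted p = 0.0622) or skip2 induced replicate 1 (-2.85, adjusted p = 0.103). With dN90 induced it fell by 2.08 relative to the not induced groups (SE 0.51, limma adjusted p = 0.00317) and kept the call in every alternative run. Its difference between skip1 induced and skip1 alone was 0.20 (95% interval -1.04 to 1.44), and the test of skip1's effect against skip2's gave 3.49 (SE 1.01, limma adjusted p = 0.218), called with only those groups in the fit (adjusted p = 0.0015).

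Slc13a3 (chromosome 2, 165405028 to 165473230), the gene of a sodium-dependent dicarboxylate transporter, rose with skip1 induced. Its 5 skip1 induced libraries had 21.5, 17.6, 32.5, 52.4 and 49.0 normalized counts. The skip2 induced libraries had 20.7 and 17.3 and the dN90 induced ones 13.4, 9.18, 5.02 and 4.97. Baseline libraries ran from 2.30 to 15.1: 4.53 and 9.14 in wild type, 9.87, 2.30 and 9.59 in skip1 alone, and 11.6 and 15.1 in skip2 alone. All 7 skip induced libraries were above that range and no dN90 induced library was. In order, skip1 induced (34.6 ± 15.7, n = 5) and skip2 induced (18.98 ± 2.41, n = 2) overlapped, skip2 alone (13.3 ± 2.51, n = 2) lay below both, and dN90 induced, skip1 alone and wild type overlapped one another at means of 6.84 to 8.13. These values rest on 2 to 58 estimated reads, and the gene's mean outside skip1 induced, 10.2, barely reached the minimum of 10 for testing.

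The difference from skip1 alone was 2.17 (SE 0.43, limma adjusted p = 0.00189), 4.51-fold on this scale, and from dN90 induced 1.94 (SE 0.40, limma adjusted p = 0.00421). Neither pair of groups overlapped, and both calls held in every alternative run. Skip2 induced exceeded skip2 alone by 0.49 (95% interval -0.75 to 1.72) and dN90 induced by 1.23 (SE 0.51, limma adjusted p = 0.27), also without overlap but not called. Skip1 and skip2 induced differed by 0.72 (95% interval -0.31 to 1.75), and the test of their effects against each other gave 1.69 (SE 0.73, limma adjusted p = 0.441). Every skip1 and skip2 induced library lay above the not induced range for Slc13a3, but the skip2 differences were not called. For Slc1a2, both skip2 induced libraries lay below its not induced range.

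Rhbg (chromosome 3, 88242874 to 88254709), the Rh family ammonia channel gene, was near the detection limit, with 1 to 13 estimated reads per library. It had 7.93 and 9.97 normalized counts in wild type, 4.26 to 9.87 in skip1 alone, 6.94 and 4.12 in skip2 alone, 3.23, 3.70, 4.64, 4.51 and 8.52 in skip1 induced, 1.84 and 7.15 in skip2 induced, and 10.2, 1.02, 3.76 and 0.99 in dN90 induced libraries. Neighbouring groups in order of mean overlapped, and dN90 induced spanned the whole range. Its mean of 5.40 was under the minimum of 10, so it was not among the genes tested. In a fit without that minimum no comparison was called, and the lowest limma adjusted p was 0.114, for dN90 induced against not induced (-0.98).

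Oat (chromosome 7, 132557478 to 132576398), the gene of mitochondrial ornithine aminotransferase, was low with skip2 and dN90 induced and did not go above baseline anywhere. It had 71.3 and 89.95 normalized counts with skip2 induced and 303, 208, 123 and 30.8 with dN90 induced. With skip1 induced it had 238, 397, 159.7, 274 and 322. Wild type had 281 and 337, skip1 alone 462, 430.3 and 371, and skip2 alone 584 and 424. Both skip2, 3 of 4 dN90 and 3 of 5 skip1 induced libraries were below the not induced range. Means ran in the order skip2 alone (504 ± 113, n = 2), skip1 alone (421 ± 46.3, n = 3), wild type (309 ± 39.9, n = 2), skip1 induced (278 ± 88.9, n = 5), dN90 induced (166 ± 116, n = 4) and skip2 induced (80.6 ± 13.2, n = 2). In that order neighbours overlapped, apart from skip1 alone and wild type, whose difference of 0.44 (95% interval -0.74 to 1.63) was not called.

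Oat fell by 2.62 with skip2 induced relative to skip2 alone (SE 0.63, limma adjusted p = 0.00685), a 6.15-fold difference without overlap. The call was lost without skip2 alone replicate 1 (-2.39, limma adjusted p = 0.0673) or skip2 induced replicate 1 (-2.46, adjusted p = 0.0692). With dN90 induced it fell by 1.67 (SE 0.39, limma adjusted p = 0.00221) in a call that held in every alternative run. Skip1 induced stood 1.72 above skip2 induced (SE 0.52, limma adjusted p = 0.0708), without overlap, and passed with only those groups in the fit (adjusted p = 0.016) or with voom, a count-based weighting of the estimated reads (adjusted p = 0.0453). It stood 1.09 above dN90 induced (limma adjusted p = 0.172), or 1.51 without dN90 induced replicate 1, when it was called (adjusted p = 0.0356). Relative to skip1 alone it was at -0.65 (95% interval -1.61 to 0.30).

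Rgn (chromosome X, 20549787 to 20562089) encodes regucalcin, a calcium-binding lactonase of ascorbate synthesis. Its skip1 induced libraries spread least of the 8 genes (coefficient of variation 7.18%), at 442, 447, 449, 510.0 and 505 normalized counts (470.5 ± 33.8, n = 5). Skip2 induced had 419 and 366, and dN90 induced 359, 234, 197 and 149. Not induced libraries ran from 274 to 422, with 326 and 329 in wild type, 291, 274 and 376 in skip1 alone and 422 and 404 in skip2 alone. All 5 skip1 induced libraries were above that range, both skip2 induced ones inside it and 3 of 4 dN90 induced ones below it. In order of mean, skip1 induced did not overlap skip2 alone (413 ± 12.8, n = 2), and from there skip2 induced (392 ± 37.5, n = 2), wild type (328 ± 2.03, n = 2), skip1 alone (314 ± 54.8, n = 3) and dN90 induced (235 ± 89.7, n = 4) followed. Of these, skip2 induced and wild type did not overlap each other either.

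Rgn was higher with skip1 than with dN90 induced by 1.07 (SE 0.20, limma adjusted p = 0.00171), without overlap and with the call kept in every alternative run. Skip1 induced exceeded skip1 alone by 0.59 (SE 0.22, limma adjusted p = 0.071), also without overlap, and passed with upper-quartile scaling (0.73, adjusted p = 0.0283), quantile normalization (1.11, adjusted p = 0.00447) and voom (1.07, adjusted p = 0.00261). Relative to the not induced groups Rgn fell by 0.64 with dN90 induced (SE 0.19, limma adjusted p = 0.0108), but the call was lost in 4 alternatives. Among them were the fit without dN90 induced replicate 4 (-0.45, adjusted p = 0.0726), quantile normalization (-0.20, adjusted p = 0.461) and voom (-0.09, adjusted p = 0.691). Skip2 induced differed from skip2 alone by -0.08 (95% interval -0.70 to 0.54) and from dN90 induced by 0.81 (SE 0.26, limma adjusted p = 0.103), which passed without dN90 induced replicate 1 (1.04, adjusted p = 0.0201).

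Lect2 (chromosome 13, 56542464 to 56548502), the gene of a protein secreted by hepatocytes and a known beta-catenin target, was called in no comparison. It had 30.1, 23.1, 56.7, 42.4 and 36.2 normalized counts with skip1 induced, 39.1 and 27.4 with skip2 induced and 36.2, 19.4, 18.8 and 25.8 with dN90 induced. Not induced libraries had 28.3 and 36.6 (wild type), 16.4, 14.96 and 33.0 (skip1 alone) and 34.7 and 30.2 (skip2 alone). All 6 groups overlapped one another. The lowest adjusted p was for skip1 induced against skip1 alone (0.81, SE 0.30, limma adjusted p = 0.0722), which passed without skip1 alone replicate 3 (1.15, adjusted p = 0.0263), without skip1 induced replicate 2 (0.96, adjusted p = 0.0274) and with upper-quartile scaling (0.94, adjusted p = 0.0456).

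Ahr (chromosome 12, 35497974 to 35535038) encodes the aryl hydrocarbon receptor, a ligand-activated transcription factor that induces cytochrome P450 genes. Ahr had its highest group mean with skip2 induced. It was at 82.8 and 52.2 normalized counts with skip2 induced and 57.1, 36.5, 52.4 and 53.4 with dN90 induced. Skip1 induced had 35.3, 24.8, 38.8, 45.8 and 25.4. Baseline libraries had 26.4 and 28.9 (wild type), 31.1, 11.7 and 16.96 (skip1 alone) and 24.6 and 23.7 (skip2 alone). All 6 skip2 and dN90 induced libraries, and 3 of 5 skip1 induced ones, were above the not induced range. Skip2 induced (67.5 ± 21.7, n = 2) and dN90 induced (49.9 ± 9.11, n = 4) overlapped, as did dN90 and skip1 induced (34.0 ± 8.96, n = 5), wild type and skip1 alone overlapped skip1 induced, and skip2 alone lay just below it.

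Ahr rose by 1.06 with dN90 induced (SE 0.24, limma adjusted p = 0.00151), without overlap and in every alternative run. With skip2 induced it rose by 1.41 over skip2 alone (SE 0.38, limma adjusted p = 0.015), but not without skip2 alone replicate 1 (1.43, adjusted p = 0.0706), skip2 alone replicate 2 (1.38, adjusted p = 0.0785) or skip2 induced replicate 1 (1.08, adjusted p = 0.2). Its difference between skip1 induced and skip1 alone, 0.81 (SE 0.28, limma adjusted p = 0.052), was not called and passed without skip1 alone replicate 1 (1.18, adjusted p = 0.00838), skip1 induced replicate 2 (0.91, adjusted p = 0.0301) or skip1 induced replicate 5 (0.91, adjusted p = 0.0474). Skip1 minus skip2 induced was -0.97 (SE 0.32, limma adjusted p = 0.0944), without overlap.

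**Figure D2:**
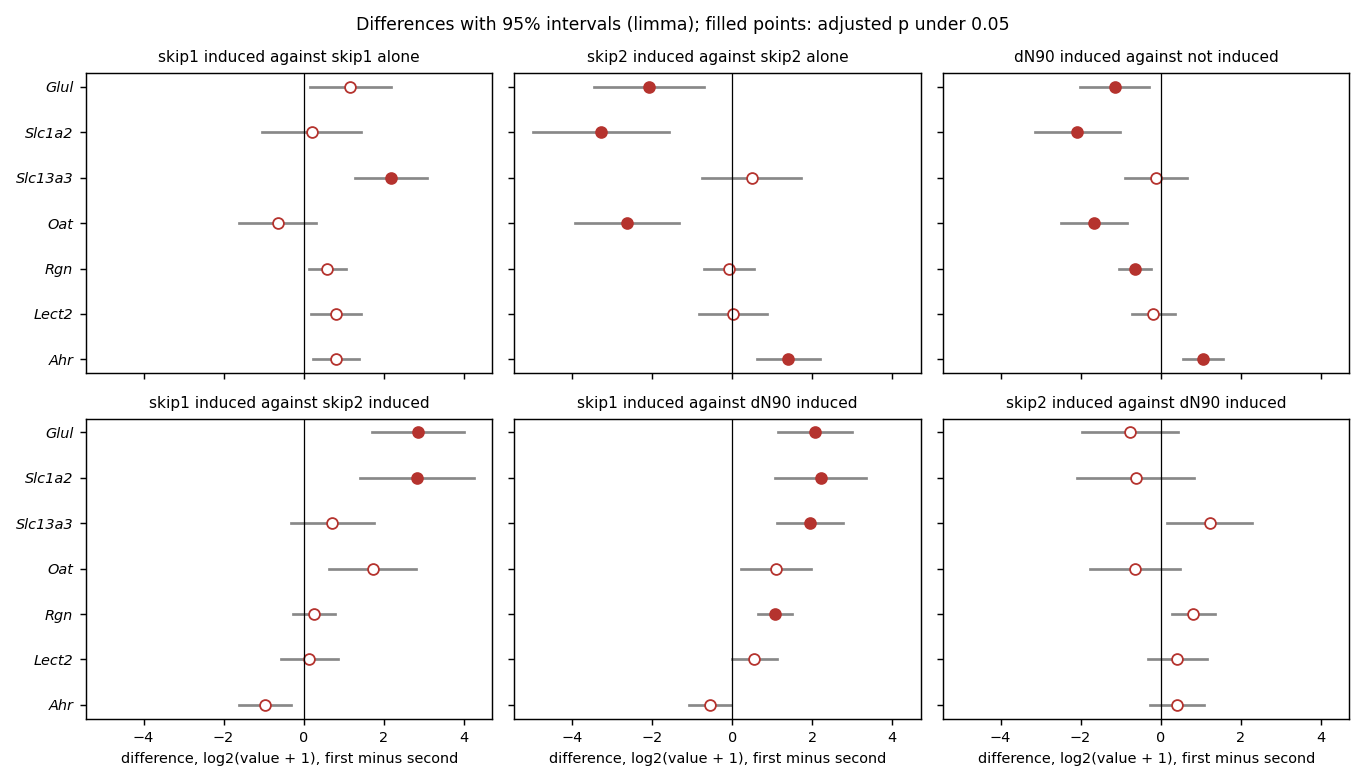
Differences on the log2(value + 1) scale with 95% intervals for the 7 tested genes in 6 comparisons, filled points where limma called the difference. Glul and Slc1a2 lie furthest above 0 with skip1 against skip2 induced (2.85 and 2.84), and Slc1a2 furthest below 0 with skip2 induced against skip2 alone (-3.28).

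Of the 7 genes tested, those called between induced groups were all higher with skip1. Against skip2 induced, 2 of 7 were higher and none lower, where limma called 3.53% of all 6592 genes (3.09% higher). In 5 of 7 the groups did not overlap, as in 20% of all genes. The median difference of the 7 was 0.72, beside -0.03 over all genes. Against dN90 induced, 4 of 7 were higher and none lower, where 4.63% of all genes were called (3.17% higher), and 2 of 7 did not overlap, beside 7.72%. The 3 induced groups share libraries between these comparisons. The first count fell to 0 without skip2 induced replicate 1 and to 1 without skip1 induced replicate 5. Between skip2 and dN90 induced, limma called 0 of 7 (2 at an unadjusted p under 0.05, 0 with voom), beside 3.03% of all genes. Here 2 of 7 did not overlap, beside 21.6%, and 1, Rgn, was called without dN90 induced replicate 1.

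Against baseline a larger share of all genes was called. For skip1 induced against skip1 alone 1 of 7 was called, Slc13a3, beside 14.7% of all genes (6.55% higher), and 2 of 7 did not overlap, beside 19%. The count was 4 without skip1 induced replicate 2, and 2 without skip1 alone replicate 1, skip1 alone replicate 3 or skip1 induced replicate 5. For skip2 induced against skip2 alone 3 of 7 were lower (Glul, Slc1a2, Oat) and 1 higher (Ahr), beside 14.9% of all genes (8.42% lower and 6.52% higher). With 2 libraries on each side, 5 of 7 did not overlap, beside 59.9% of all genes. That count was 0 without skip2 induced replicate 1 and 1 without either skip2 alone replicate. For dN90 induced against the not induced groups 4 were lower (Glul, Slc1a2, Oat, Rgn) and 1 higher (Ahr), beside 37.5% of all genes (19.9% lower and 17.6% higher), or 3 called without dN90 induced replicate 4, and 1 of 7, Ahr, did not overlap, beside 23.5%. Both isoforms alone gave no call: skip1 alone against wild type gave 0 of 7 (0 at an unadjusted p under 0.05, 0 with voom) beside 0.0% of all genes (no overlap in 2 of 7 and 17.8%), and skip2 alone against wild type 0 of 7 (0 at an unadjusted p under 0.05, 0 with voom) beside 0.0152% (no overlap in 5 of 7 and 35.5%). The test of skip1's effect against skip2's called 0 of 7 (4 at an unadjusted p under 0.05, 0 with voom) beside 0.167%, or 1 without skip2 induced replicate 2.

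Glul was also compared with the other tested genes library by library. Over the 11 induced libraries, the log2 values of Glul had r = 0.93 with Slc1a2, 0.80 with Oat, 0.79 with Slc13a3, 0.70 with Rgn, 0.52 with Lect2 and -0.61 with Ahr. After removal of each group's mean these were 0.83, 0.63, 0.91, 0.78, 0.46 and 0.03. Over the 7 not induced libraries they were 0.53, -0.09, 0.86, 0.67, 0.69 and 0.81. Oat was thus close to 0 and Ahr positive among the not induced libraries, and the difference between the sets was not tested. Slc1a2 and Oat had r = 0.95 over the induced libraries and 0.94 within groups. These points share libraries, depth and tissue makeup, and the values are descriptions without a test.

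**Figure D3:**
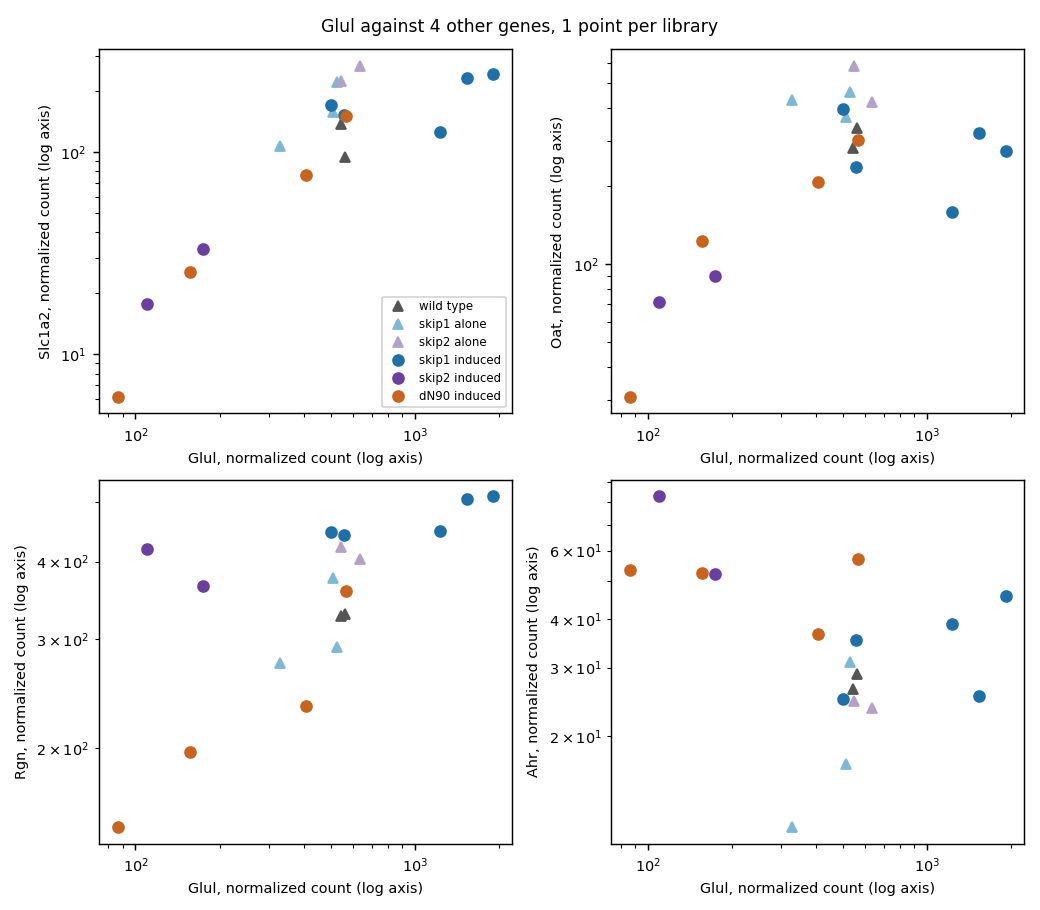
Glul against Slc1a2, Oat, Rgn and Ahr, normalized counts on log axes, 1 point per library. Slc1a2 and Oat follow Glul at the low end, where skip2 induced and dN90 induced replicates 3 and 4 lie. In the skip1 induced libraries with Glul at 1227 to 1910.0, Slc1a2 is at 126 to 242 and Oat at 159.7 to 322. In those with Glul at 558 and 500.4, Slc1a2 is at 152 and 171 and Oat at 238 and 397.

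Among the 676 genes that averaged 100 or more in the 11 induced libraries, Slc1a2 had the highest r with Glul and Oat the seventh. Others among the 8 highest were Gclc (0.91), the catalytic subunit of glutamate-cysteine ligase, Creg1 (0.87), Errfi1 (0.86), an inhibitor of EGF receptor signalling, Nat8f2 (0.86) and Serpina3k (0.78), a plasma protease inhibitor gene. These 5 genes had r of -0.06, 0.02, -0.70, 0.02 and 0.38 over the 7 not induced libraries, where Slc1a2 had 0.53. The lowest were Dsg2 (-0.90), a desmosome cadherin, Notch2 (-0.90), the receptor, and Npc1 (-0.87), a cholesterol transporter.

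Marker sums differed between libraries of a group. In skip1 induced replicates 1 and 2, with Glul at 558 and 500.4, the hepatocyte markers summed to 37412 and 55807 and the periportal list to 3680.0 and 5901. In replicates 3 to 5, with Glul at 1227 to 1910.0, these sums were 22405 to 29111 and 1575 to 2154. The biliary sums were 326 and 231 in replicates 1 and 2 and 532, 488 and 239 in replicates 3 to 5. In dN90 induced replicates 1 to 4, with Glul at 565, 408, 157 and 86.4, the hepatocyte sums were 32806, 27749, 27531 and 27023 and the biliary sums 230, 162, 395 and 801. The hepatocyte sum was thus lower in the high-Glul libraries of skip1 induced. In dN90 induced only replicate 1, with the highest Glul, stood apart with a higher sum, and replicates 2 to 4 lay close together. The skip2 induced pair had biliary sums of 640.2 and 557 and hepatocyte sums in the range of skip1 induced. The part of these markers in the results was not tested.

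A list of 27 other pericentral and Wnt-responsive genes had 24 tested. Between skip1 and skip2 induced, limma called 0 of the 24, beside 3.53% of all genes (4 at an unadjusted p under 0.05, 2 lower with voom, list median 0.09), and against dN90 induced 3 of 24 were higher with skip1, beside 3.17% of all genes: the P450 gene Cyp1a2 (1.71), the bile salt and drug transporter gene Slco1b2 (1.13) and the glutathione transferase gene Gstm1 (0.68). Cyp2e1, the abundant pericentral P450, had 3245 ± 492 (n = 5) with skip1 induced, 3705 ± 552 (n = 2) with skip2 induced and 3584 ± 873 (n = 4) with dN90 induced, and was called in no comparison. Relative to baseline the list split. The receptor gene Tnfrsf19 rose with skip1, skip2 and dN90 induced in turn (2.83, 3.01 and 3.25). The Wnt feedback inhibitor genes Axin2 and Rnf43 rose with skip1 (1.80 and 1.09) and dN90 (1.63 and 1.29). Axin2 was low, at means of 18.1, 14.9 and 15.6 normalized counts with skip1, skip2 and dN90 induced and 3.22 to 5.70 without the induced condition, and it reached the minimum of 10 for testing only through its skip1 induced libraries. Gstm2 rose as well (1.48, 1.63 and 1.31).

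Some P450 genes of the same list fell. Cyp2c37 fell with skip1 induced (-1.45), and Cyp2c54 (-2.78), Cyp1a2 (-2.58), Cyp2c37 (-2.20) and Cyp2c50 (-1.92) fell with skip2 induced. With dN90 induced, Cyp1a2 (-2.94), Cyp2c54 (-1.72), Slco1b2 (-1.59) and Cyp2c50 (-1.51) fell. Cyp2a5 and Cyp7a1 were called in none of these 3 comparisons. Reads of the Cyp2c and Gstm genes may be shared with their paralogs. Over all genes, 14.7% were called with skip1 (6.55% higher). With skip2, 6.52% were higher and 8.42% lower, and with dN90 17.6% were higher and 19.9% lower. In this list, 4 were higher and 2 lower with skip1, 2 and 6 with skip2, and 6 and 6 with dN90. List medians were 0.14, 0.01 and 0.01. Without skip2 induced replicate 1 the skip2 counts were 2 and 0, without skip2 alone replicate 1 they were 2 and 1, without skip2 alone replicate 2 they were 2 and 2, and without skip1 alone replicate 1 the skip1 counts were 2 and 1. With voom, which replaced the authors' scaling and moved the median of all genes to 0.44, 0.53 and 0.55, the counts were 10 higher and 0 lower, 8 and 3, and 13 and 5. With quantile normalization, which kept that median near 0, they were 8 and 1, 5 and 3, and 10 and 5.

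**Figure D4:**
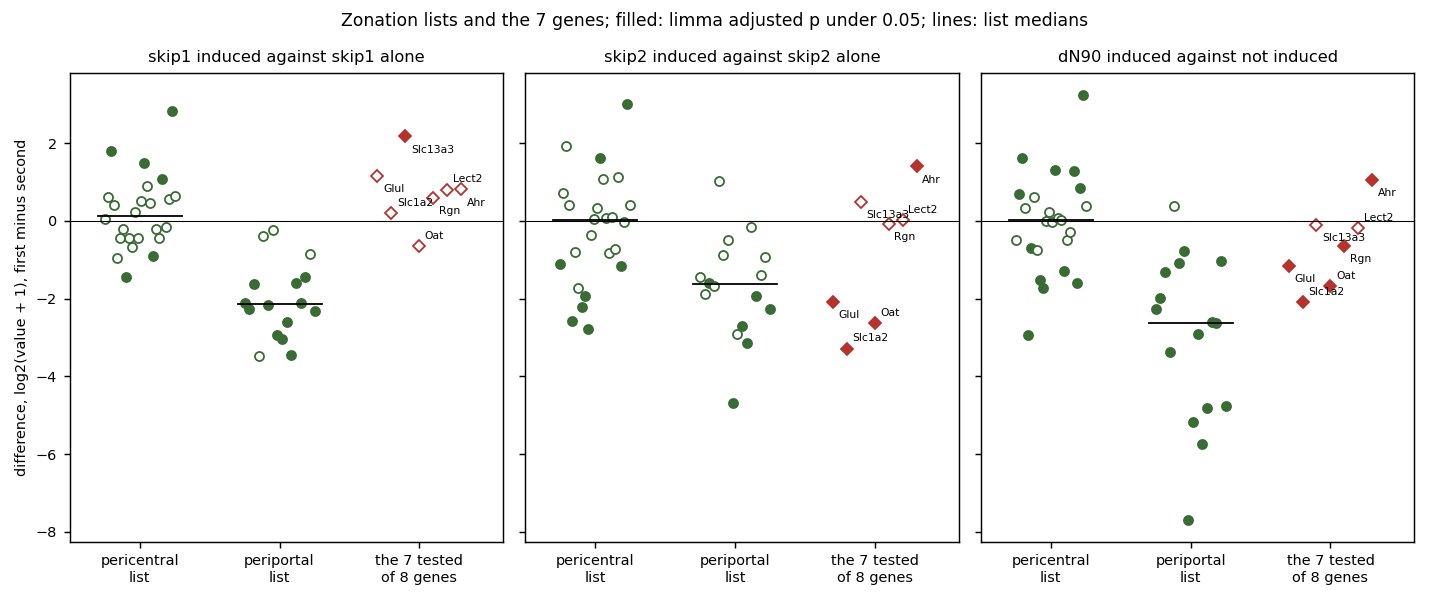
Differences on the log2(value + 1) scale of the tested members and of the pericentral and periportal lists in the 3 comparisons with baseline, 1 point per gene, lines at list medians. The periportal medians lie at -2.13, -1.63 and -2.62, and the pericentral medians at 0.14, 0.01 and 0.01.

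Periportal genes, which handle ammonia and amino acids upstream of Glul in the lobule, were lower against baseline. Over all genes, 8.42% were lower with skip2 and 19.9% with dN90, and 14.7% were called in either direction with skip1. Of 16 periportal genes tested, 12 were lower with skip1 induced, 6 with skip2 and 15 with dN90, and none was higher. With voom the counts were 12, 6 and 12 lower with 0, 1 and 1 higher. The skip2 count was 3, 2 and 1 without skip2 alone replicate 1, skip2 alone replicate 2 and skip2 induced replicate 1. Examples with skip1 induced were the histidine ammonia-lyase gene Hal (-3.45), Etnppl (-3.04), Cyp2f2 (-2.93) and Gls2 (-2.596), the liver glutaminase that releases ammonia. Between skip1 and dN90 induced, 5 of 16 were higher with skip1, beside 3.17% of all genes. Among the 5 were Cyp2f2 (4.83), Hsd17b6 (3.17), Sds (2.89) and Hal (2.76).

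Among 15 tested enzymes of glutamine, glutamate and ammonia, some of which are also periportal list genes, Gls2 fell with skip1 induced (-2.596), dN90 induced (-2.91) and skip2 induced (-2.69). The urea cycle entry enzyme Cps1 fell with skip1 (-2.15) and dN90 induced (-1.09), and the aminotransferase genes Got1 (-1.97) and Gpt (-1.05) with skip1. Glud1, glutamate dehydrogenase, was higher with skip1 (0.92) and skip2 (1.11) than with dN90 induced. Across all genes, 8.42% were lower with skip2 and 19.9% with dN90, and 14.7% were called in either direction with skip1. Of these 15 enzymes, 5 were lower with skip1, 1 with skip2 and 5 with dN90, with list medians of -0.37, -0.22 and -0.42. Under voom 3, 1 and 2 were lower. Gls2 was not called with skip2 induced without skip2 alone replicate 2 or skip2 induced replicate 1.

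Several genes around Oat and the transporters fell. The share of all genes called lower was 8.42% with skip2 and 19.9% with dN90, and 14.7% were called in either direction with skip1. Of 7 tested genes of ornithine and proline handling, Otc (-2.11), Arg1 (-2.25) and the mitochondrial ornithine carrier gene Slc25a15 (-1.14) fell with skip1 induced. Otc (-1.92) and Slc25a15 (-1.37) fell with skip2, and Otc (-2.61), Arg1 (-1.99) and Slc25a15 (-1.40) with dN90 induced. The skip2 count of 2 was 0 without skip2 induced replicate 1 and 1 without any other skip2 library. Of 8 tested glutamine, glutamate and dicarboxylate carriers, 5 were lower with skip1, 0 with skip2 by limma (2 at an unadjusted p under 0.05) and 6 with dN90 induced. The hepatocyte glutamine carrier Slc38a3 (-1.31 and -1.08) and the amino acid carrier Slc38a4 (-1.34 and -1.12) were lower with skip1 and dN90. With voom 2, 0 and 1 of these carriers were lower, and without skip1 alone replicate 1, skip1 alone replicate 3 or skip1 induced replicate 3 the skip1 count was 3. Of 6 tested genes of ammonia channels and acid-base balance, Car3 (-2.87, -4.31 and -5.93) and Car14 (-1.25, -1.17 and -0.84), both carbonic anhydrase genes, fell in all 3 comparisons, Aqp8, a water and ammonia channel, fell with dN90 (-4.26), and the bicarbonate carrier Slc4a4 rose (0.69, 1.37 and 0.73). The skip2 count of this list, 3 lower, was 1 with voom, with quantile normalization, without skip2 alone replicate 2 and without skip2 induced replicate 1.

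A list of partners and targets of the receptor had 7 genes tested. Cyp1a2 and the glucuronosyltransferase gene Ugt1a6a, whose exons are partly shared with its neighbours, fell with skip2 induced (-2.58 and -1.70) and dN90 induced (-2.94 and -2.42). Ugt1a6a also fell with skip1 (-0.82). Arnt, the partner of the receptor, rose with dN90 induced (0.60) and was lower with skip1 than with skip2 (-0.92) or dN90 induced (-0.80). Against baseline, 14.7% of all genes were called with skip1, 14.9% with skip2 (8.42% lower) and 37.5% with dN90 (19.9% lower). In this list, 0 were higher and 1 lower with skip1, 0 and 2 with skip2, and 1 and 3 with dN90. With voom the list counts were 0 and 0, 1 and 2, and 3 and 3. Ugt1a6a lost its skip1 call without skip1 alone replicate 3 or skip1 induced replicate 3, and the skip2 count was 1 without skip2 induced replicate 1. Arnt was no longer called between skip1 and skip2 induced in all but 1 of the fits that left out a library, nor with dN90 induced without wild type replicate 2 or dN90 induced replicates 1 or 4.

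In the z-score table, a value is the distance from a gene's mean in SDs over a set of libraries, so it gives no fold and no level. In the block of 16 libraries used here, gene means lay up to 0.241 from 0 and the median gene SD was 1.03. The scaling was therefore not exactly over these 16. Oat was at 2.18, 1.51 and 2.39 in the sgActin and YAPS127A group, 0.14, -0.40, -0.37 and -0.19 in subtype A, and -0.64 to -0.23 (median -0.57) in subtype B. Ahr was at -1.78, -1.82 and -1.68 in that group, -1.14, 0.80, 0.31 and 0.15 in subtype A, and 0.41 to 1.16 (median 0.52) in subtype B. Neither subtype overlapped the sgActin and YAPS127A group for Oat or Ahr, while the subtypes overlapped each other.

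Oat fell in subtype A (-2.23, SE 0.18, limma adjusted p = 3.98e-09) and subtype B (-2.55, SE 0.16, limma adjusted p = 8.08e-11) relative to the sgActin and YAPS127A group, and Ahr rose (1.79, adjusted p = 5.82e-05, and 2.40, adjusted p = 3.72e-07). The authors had selected the genes of that table, and 97.3% and 99.6% of all 1659 were called in these comparisons, so 2 of 2 is the background (41.7% higher and 55.6% lower for A, 44.1% and 55.6% for B, with 98.6% and 98.9% not overlapping). Between the subtypes 1 of 2 was called, beside 61.1% of all genes (20.9% lower, and 38.9% without overlap, a state neither gene reached): Ahr was lower in subtype A (-0.62, SE 0.25, limma adjusted p = 0.0448). Without subtype A replicate 1, at -1.14, that difference was -0.23 (limma adjusted p = 0.254), and the call was lost in 10 of 16 alternatives. Oat differed by 0.32 (SE 0.14, limma adjusted p = 0.0563). The 18 libraries of the normalized counts were scaled apart in that table and repeat the values already given, so they were not tested again.

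**Figure D5:**
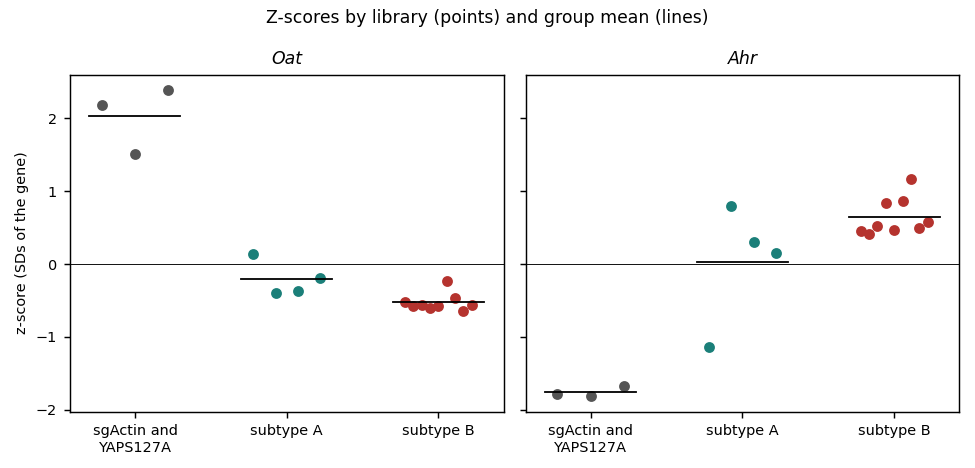
Z-scores (in SDs of the gene) of Oat and Ahr, 1 point per library, lines at group means. The groups are sgActin and YAPS127A, subtype A and subtype B. Oat is above 1.5 in the 3 libraries of the first group and at most 0.14 in the 13 others, and Ahr is at or below -1.68 in the first group.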

How the data were processed

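Bulk RNA sequencing libraries of mouse liver (34 in 9 groups) were grouped by source label. Per the submitters' processing notes, reads were handled with FastQC, STAR, RSEM and DESeq2 on mm10; versions, settings and annotation are not given in the sources used here. The authors deposited normalized counts, a signal per gene that is never negative, for 18 libraries, and a z-score, a score in SDs per gene, for 16 libraries in 1 block and the same 18 in another. About 60% of the deposited values above 0 (59.3% to 60.5% per library) lay within 0.001 of a whole multiple of a step particular to the library, and dividing by that step gave the estimated reads, 361772 to 933146 per library, which limit the precision of low genes. For the z-scores no depth is known.

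The 6592 genes whose mean over the 18 libraries reached 10 were tested, all together, as log2(value + 1) with limma 3.58.1 in R 4.3.3. Each group had its own coefficient, the prior followed the trend with mean, tests were two-sided, and p-values were adjusted over all genes by Benjamini-Hochberg, with calls at an adjusted p under 0.05. Such differences understate changes of low genes. Z-scores were tested with limma without a trend over all 1659 genes. Whether a group's libraries are from different animals is not in the labels, and p-values therefore measure only the spread between these samples, which may be technical. Every 2 libraries of a group differed by more than counting noise. The fits were tested on simulated data.

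The genes and lists were chosen with earlier results of these data known. Named genes were the 8 members, up to 4 called genes per list and comparison, the 8 highest and 3 lowest by r with Glul, and Ctnnb1. Alternatives were pseudocounts of 0.5 and 5, no minimum or one of 50, upper-quartile and quantile scaling, voom on the estimated reads, log2 depth as a covariate, only the groups compared, for z-scores rescaling or a trended prior, and each library left out; where 1 library remained in a group it was assumed to vary like the others. Coordinates are from GENCODE on mm10, promoters from RefSeq on GRCm38.p6, and 98.3% of symbols matched the reference names. For 2 genes that this rule selects, results are not reported here.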

Additional observations from a re-analysis of the deposited data

Results flagged for a closer look

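In groups of 4 to 10 libraries, 2 of 20 sets of values held a library far from the others, where chance gives about 1 in 20. Rhbg was at 8.52 normalized counts in skip1 induced replicate 5, and the nearest other library of that group was at 4.64. Oat had a z-score of -0.227 in subtype B replicate 6, and the nearest other subtype B library was at -0.470.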

How the results depend on the processing

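No paired analysis was possible because the labels carry no replicate numbers, and numbers in accession order pair nothing. Over 69 gene results and 1110 alternatives, 995 kept direction and side of the threshold, 49 lost a call, 35 gained one and 31 changed sign, none of these a called result. Of 21 calls, 11 held in every alternative: Slc13a3 with skip1 induced against skip1 alone and dN90 induced, Glul and Rgn with skip1 against dN90 induced, Slc1a2, Oat and Ahr with dN90 induced against not induced, and the z-score calls against the sgActin and YAPS127A group.

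The number of genes called for skip1 against skip2 induced was 4 with voom and 0 with depth as a covariate (0 to 2 with a library left out). For skip1 against dN90 induced it was 3 to 5 with a library left out. For skip2 against dN90 induced it was 1 with quantile normalization (0 to 1 with a library left out). For skip1 induced against skip1 alone it was 4 with upper-quartile scaling, 3 with quantile normalization, 5 with voom, 3 with the covariate and 4 without skip1 induced replicates 1 and 2 (1 to 4 with a library left out). That pair was chosen after seeing the data and has the lowest Glul of its group, so its omission favours higher values and supports nothing. For skip2 induced against skip2 alone it was 0 to 3 with a library left out. For dN90 induced it was 3 with quantile normalization, voom or the covariate (3 to 5 with a library left out). The test of skip1's effect against skip2's gave 2 with only those groups and 1 without both skip1 induced replicates (0 to 1 with a library left out). Subtype A against B gave 2 with a trended prior (0 to 2 with a library left out).

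Uncalled values changed sign as follows (ranges are over fits with 1 library left out). For Lect2, skip1 against skip2 induced ran from -0.11 to 0.38, skip2 against dN90 induced was -0.31 with the covariate, skip2 induced against alone was -0.48 with the covariate and ran from -0.23 to 0.26, dN90 induced was 0.37 with voom and 0.072 with the covariate, and skip2 alone was -0.010 with upper-quartile scaling, -0.15 with voom and ran from -0.17 to 0.19. For Slc1a2, skip2 against dN90 induced ran from -1.44 to 0.035 and skip1 induced against alone from -0.064 to 0.46. For Rgn, skip2 induced against alone was 0.099, 0.65 and 0.53 with upper-quartile, quantile and voom scaling and ran from -0.17 to 0.021, and skip1 alone was 0.12 with the covariate and ran from -0.21 to 0.014. For Slc13a3, dN90 induced was 0.52 with voom and ran from -0.36 to 0.064, and skip1 alone was 0.0057 with a pseudocount of 5, 0.0075 with the covariate and ran from -0.49 to 0.52. For Glul, skip2 alone was -0.084 with quantile normalization, -0.063 with voom and ran from -0.016 to 0.20. The cause of these changes was not tested. Voom moved the median of all genes by 0.44 to 0.55 against baseline. Relative to that median, Glul was at -1.15 with dN90 and -2.01 with skip2 induced. With quantile normalization, which kept the median near 0, Glul relative to it was at -0.60 and -1.41. The skip2 induced pair was the deepest, so depth and that group cannot be told apart, and Slc13a3 and Rhbg rest on few reads.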
